A study of Mus musculus with 36 samples.

Results

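Knee cartilage from limbs operated by DMM (surgical destabilization of the medial meniscus, which leads to osteoarthritis, OA) was compared between 12 and 4 weeks after surgery. The comparison used the RNA libraries of the operated right leg, 3 collected at 12 weeks and 3 collected at 4 weeks, which are 6 of the 36 libraries in the series. Both groups came from male C57BL/6J mice that had surgery on the right knee at 12 weeks of age, so both carry the operation and they differ in the time since it. Cartilage was dissected from the tibial plateaus and femoral condyles, and 3 knees were pooled for each library, so a replicate is a pool and not a mouse. The 4-week and 12-week pools came from different mice. The left knees of these mice had no surgery of any kind and gave 3 control libraries per week, which stand here only beside the DMM values. The mice collected at 12 weeks were also older at collection, so time since surgery, age and anything handled separately for each collection cannot be told apart within the DMM limb.

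Articular cartilage is made by chondrocytes, which secrete type II, IX and XI collagens and the large proteoglycan aggrecan, and cells of its surface secrete lubricin. In OA this matrix is broken down by proteases of the MMP and ADAMTS families, and the synovial lining and fat pad of the joint, which hold fibroblasts and macrophages, are often inflamed. Immediate early genes such as Fos and Jun encode transcription factors that are switched on within a short time of a mechanical, growth factor or stress signal.

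The 6 libraries held 19606534 to 32733347 counts over 1 RefSeq transcript per gene. Expression is given in CPM, the unit of edgeR for counts relative to a library total scaled by its TMM factor (0.956 to 1.04). No 2 replicates agreed within counting error, the only error this covers (chi-square per degree of freedom 44.1 to 128), so each was counted as 1 sample. The first principal component, with 56.3% of the variance, separated the weeks, but 4-week replicate 1 (-15.6) lay nearer to the 12-week libraries, which were at 36.3 to 46.6, than the other 4-week libraries did (-39.7 and -72.2). The defining cartilage genes were present in every library: Col2a1 was at 2121, 1445 and 771 CPM at 4 weeks and 2110.1, 2262 and 1344 CPM at 12 weeks. Transcripts of neighbouring tissues were present as well. The summed level of 24 skeletal muscle genes was 22496 CPM in 12-week replicate 1 and 1094 to 6729 CPM in the other 5 libraries at either time. The sums of 16 neutrophil and marrow genes did not overlap between the weeks, at 20971 to 30209.7 CPM at 4 weeks and 31290.5 to 50681 CPM at 12 weeks. Nor did the sums of the fibroblast and macrophage genes listed below, which were lower at 12 weeks. Among single genes 43.4% did not overlap between the weeks.

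DMM cartilage at 12 weeks differed from DMM cartilage at 4 weeks in 3186 of 15024 genes tested (21.2%), at a Benjamini-Hochberg adjusted p-value under 0.05 by the quasi-likelihood test of edgeR. Of these, 1755 were higher (11.7% of the genes tested) and 1431 were lower (9.52%) at 12 weeks. These genes are referred to as called. Before adjustment 5722 genes had a p-value under 0.05. Among the called genes, 968 rose and 615 fell by at least 1 on the log2 scale, against a median log2 fold change of 0.02 over all genes. The 3 libraries of one week lay above or below the 3 of the other week in 6516 genes (43.4%), and in 3178 of the 3186 called genes, so a lack of overlap adds nothing to a call. The count depended on single libraries. It was 5061 of 15380 genes without 4-week replicate 1, 896 of 15091 without 4-week replicate 2 and 1166 of 15371 without 4-week replicate 3. Without 12-week replicates 1, 2 and 3 it was 1841 of 15054, 1520 of 15392 and 1397 of 15094. The counts given below for a list with a library left out are to be read against these counts over all genes. DESeq2, the tool named in the study's methods, called 4326 genes, 2340 higher and 1986 lower, and 3167 of them were among the 3186.

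The direction of change in DMM cartilage followed the base composition of the transcripts. In the fifth of genes with the lowest GC content (31.2% to 44.5%) the median log2 fold change was -0.41, and 23.8% of the genes were called lower and 0.533% higher. In the fifth with the highest GC content (56.0% to 82.9%) the median was 0.61, with 32.5% called higher and 2.06% lower. Across 15019 genes, which are not independent replicates, the correlation of log2 fold change with GC content was 0.50 in DMM and 0.08 in control cartilage. The GC content weighted by counts was 48.9% to 50.1% in the 4-week libraries and 50.5% to 50.9% in the 12-week libraries, so the groups did not overlap in it. With a correction for GC content and transcript length in each library, a step added after the data were seen, 2324 genes were called, 1208 higher and 1116 lower, and 1510 of the 3186 (47.4%) were called again. What the GC relation comes from was not tested. Counts of calls with this correction, or the calls it removed, are given with the lists of genes. Such counts are to be read against the 1208 higher and 1116 lower calls among 15024 genes, not against the shares before correction.

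**Figure D1:**
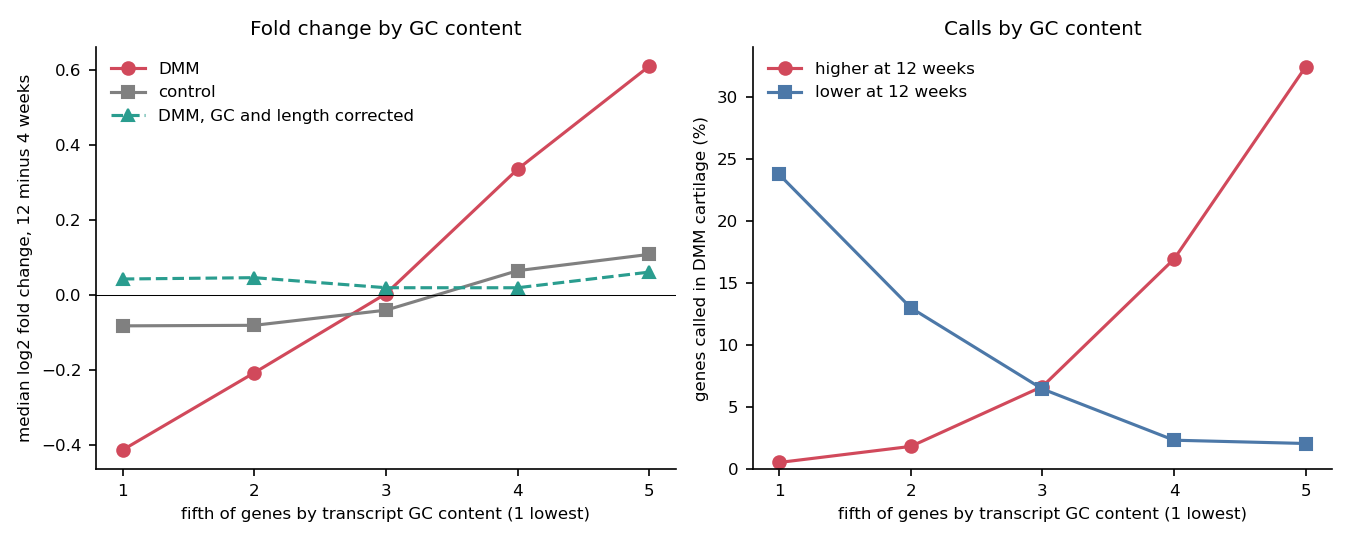
Left, the median log2 fold change from 4 to 12 weeks in 5 groups of genes ordered by GC content, for DMM cartilage, for control cartilage and for DMM cartilage after correction for GC content and length. Right, the percentage of genes called higher and lower in DMM cartilage in the same groups. The DMM median runs from -0.41 to 0.61 and the control median from -0.08 to 0.11.

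Among called genes with a mean of at least 5 CPM in the higher week and no overlap between the libraries of the weeks, the 12 with the largest rises included genes of the cytoskeleton and the nuclear lamina. Coordinates are those of the RefSeq gene on GRCm38. Eml2 (chr7:19176421-19206482), which encodes a microtubule-associated protein, was at 10.2, 5.57 and 4.87 CPM at 4 weeks and 43.0, 45.4 and 53.7 CPM at 12 weeks (log2 fold change 2.78, SE 0.29, adjusted p = 0.00627). Absence of overlap was part of the choice of these genes and of the 12 largest falls, and is no result about them. The 5 CPM were asked of the higher week only, so a gene below that in the other week was chosen through the week where it was high. Lmnb1, for lamin B1 of the nuclear lamina, was at 14.3, 13.4 and 10.3 CPM at 4 weeks and 102, 71.2 and 70.8 CPM at 12 weeks (log2 fold change 2.68, SE 0.22, adjusted p = 0.00260). Sun2 (chr15:79724068-79742536), for a protein that links the nuclear lamina to the cytoskeleton, was at 12.3, 10.5 and 6.97 CPM at 4 weeks and 54.2, 57.4 and 47.4 CPM at 12 weeks (log2 fold change 2.42, SE 0.23, adjusted p = 0.00627). Fmnl3 (chr15:99317210-99370521), a formin that promotes actin assembly, was at 25.3, 16.9 and 16.2 CPM at 4 weeks and 129, 122 and 114 CPM at 12 weeks (log2 fold change 2.64, SE 0.21, adjusted p = 0.00260). Cntfr encodes the alpha receptor for ciliary neurotrophic factor and Csf2ra the alpha receptor for GM-CSF. Cntfr (chr4:41657498-41697091) was at 1.92 ± 0.642 CPM at 4 weeks and 11.4 ± 5.39 CPM at 12 weeks (SD, n = 3 each) with a log2 fold change of 2.57 (SE 0.41, adjusted p = 0.00851). Its mean reached 5 CPM at 12 weeks only, so its place among the 12 rests on the week where it was high. Csf2ra was at 48.9, 32.1 and 24.6 CPM at 4 weeks and 159, 138 and 219 CPM at 12 weeks (log2 fold change 2.29, SE 0.28, adjusted p = 0.00687). The other 6 genes were Rgs11, a regulator of G protein signalling (log2 fold change 2.43), Lrtm2 (2.42), the zinc transporter gene Slc30a2 (2.35), the imprinted non-coding RNA Meg3 (2.32), the nuclease gene Ankle1 (2.26) and Sap25 (2.25). With the GC and length correction all 12 stayed called, with log2 fold changes of 1.74 to 2.34. Exons of Ankle1, Lrtm2, Meg3 and Sap25, and of Postn below, overlap those of another RefSeq gene, and the sources do not say whether counting used strand, so reads of the overlapping genes cannot be told apart.

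The 12 largest falls included macrophage genes and chemokines. Vsig4 (chrX:96247201-96293438), a complement receptor of tissue macrophages, was at 47.0, 74.8 and 114 CPM at 4 weeks and 11.3, 6.93 and 6.27 CPM at 12 weeks (log2 fold change -3.26, SE 0.36, adjusted p = 0.00627). Gpr34 (chrX:13622650-13640859), a lysophospholipid receptor of macrophages and microglia, was at 54.8, 61.5 and 130.0 CPM at 4 weeks and 10.4, 9.71 and 7.48 CPM at 12 weeks (log2 fold change -3.16, SE 0.34, adjusted p = 0.00627). C3ar1, the receptor for complement C3a, fell from 59.3, 66.0 and 185 CPM to 19.9, 14.9 and 10.2 CPM and had a log2 fold change of -2.79. The highest value of each of these 3 genes was in 4-week replicate 3. In bulk RNA, fewer cells of a type and less RNA of these genes per cell cannot be told apart. The chemokine genes Ccl24 and Ccl11 had log2 fold changes of -3.33 and -3.49. Ccl11 was at 3.39, 1.11 and 14.3 CPM at 4 weeks and 0.883, 0.267 and 0.448 CPM at 12 weeks, with its highest value in 4-week replicate 3. It passed the filter on low counts through the 4-week libraries where it was high, so its value and its call are no support for a fall. Cyp2e1, a cytochrome P450 of liver and fat, had the lowest log2 fold change of these 12, -3.79 (SE 0.96, adjusted p = 0.0468), and its 4-week values ranged widely, at 56.2, 7.79 and 34.8 CPM. Postn (chr3:54359267-54391041), which encodes the matrix protein periostin, was at 315, 529 and 630.0 CPM at 4 weeks and 93.9, 87.7 and 54.2 CPM at 12 weeks (log2 fold change -2.64, SE 0.31, adjusted p = 0.00677). Others were Tmem196 (-3.21), Tmem45b (-2.76), the esterase Pon1 (-2.71) and Olfml1 (-2.63). Corrected for GC and length, these genes stayed called except Ccl11 (log2 fold change -2.65, adjusted p = 0.0968) and Cyp2e1 (-3.55, adjusted p = 0.0981).

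**Figure D2:**
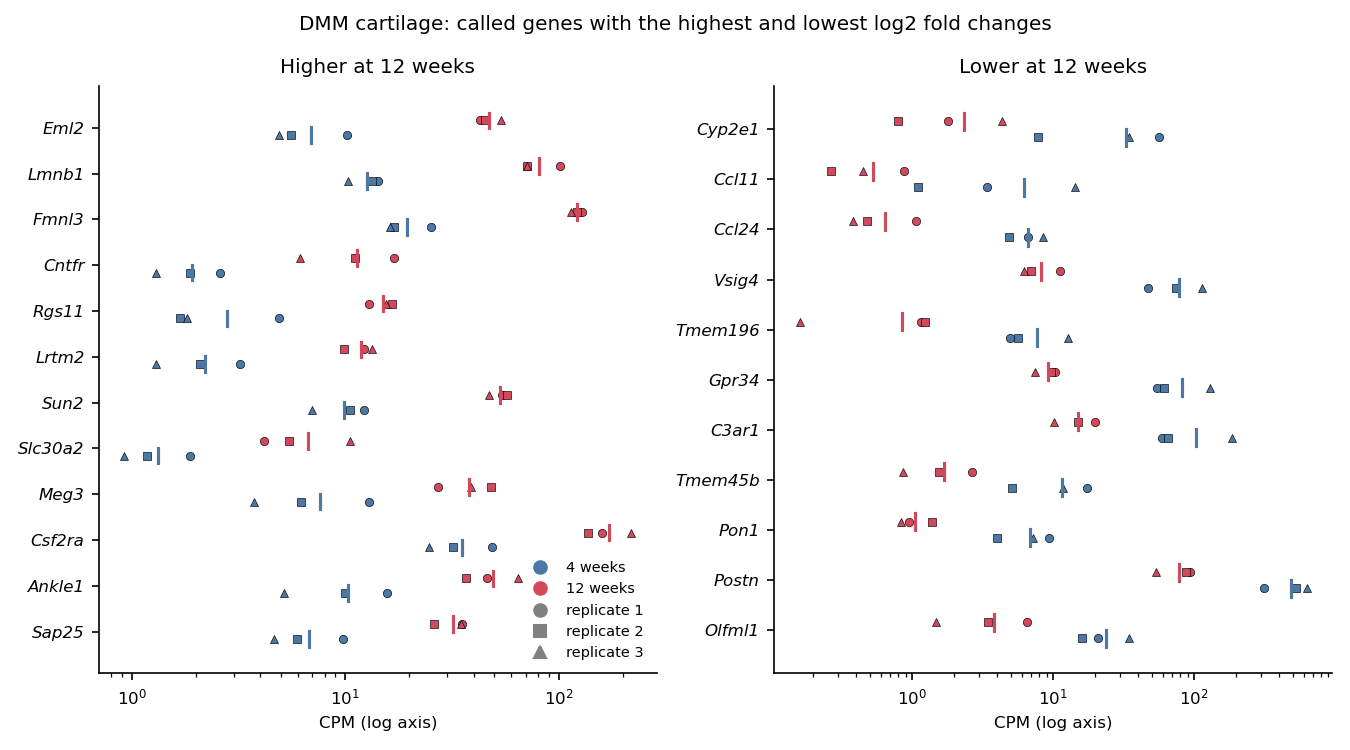
CPM on a log axis in each DMM library for the 12 highest (left) and 11 of the 12 lowest (right) log2 fold changes among called genes with at least 5 CPM and no overlap between the weeks. Circles, squares and triangles are replicates 1, 2 and 3, and vertical lines are means of 3. The genes were chosen for separate weeks, so the separation is no result. Postn, with the highest levels among the falls, spans 54.2 to 630.0 CPM.

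Among 28 genes of the chondrocyte and its matrix, 7 were called higher (25%) and 0 lower at 12 weeks, with a median log2 fold change of 0.53. The same shares over all genes were 11.7% higher and 9.52% lower. Called or not, 21 of the 28 had positive and 7 had negative log2 fold changes. Sox9 (chr11:112782210-112787757), the transcription factor that specifies chondrocytes, was at 142, 79.8 and 66.6 CPM at 4 weeks and 337, 494 and 380.4 CPM at 12 weeks (log2 fold change 2.07, SE 0.30, adjusted p = 0.00730). The highest 4-week value of Sox9 was in replicate 1. Acan (chr7:79053226-79115099), which encodes aggrecan, was at 664, 317 and 264 CPM at 4 weeks and 868, 1219 and 1035 CPM at 12 weeks (log2 fold change 1.33, SE 0.34, adjusted p = 0.0260). The minor collagen chains Col11a2 and Col9a2 had log2 fold changes of 1.77 (SE 0.31, adjusted p = 0.00974) and 1.42 (SE 0.30, adjusted p = 0.0160). Prg4 (chr1:150449412-150466221), which encodes lubricin, was at 10732, 7169 and 10112 CPM at 4 weeks and 13987, 23415 and 19200.3 CPM at 12 weeks (log2 fold change 1.01, SE 0.28, adjusted p = 0.0340). Fgfr3, a receptor that restrains chondrocyte proliferation, rose by 1.31 on the log2 scale, and the mechanosensitive calcium channel gene Trpv4 by 1.23. The major collagen gene Col2a1 was not called (log2 fold change 0.40, SE 0.35, adjusted p = 0.434), and its libraries overlapped. In all 7 called genes the highest 4-week value was in replicate 1, the library nearest to the 12-week libraries.

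These calls moved with single libraries. The list had 2 higher calls without 4-week replicate 2, 2 without 12-week replicate 2, 3 without 12-week replicate 3 and 4 without 4-week replicate 3, against 13 without 4-week replicate 1. With the GC and length correction 6 of the 28 were called higher, Trpv4 was lost (log2 fold change 0.60, adjusted p = 0.0967), and the median was 0.22. In control cartilage 25 of the 28 genes had lower values at 12 than at 4 weeks, with a median of -0.51 and 0 calls. The difference between the limbs, the interaction of limb and week, had a median of 1.11 over the list. It had an unadjusted p-value under 0.05 in 11 of its genes, against 11.9% of all genes, and an adjusted one in 0. Over all genes edgeR called 0 of 15246 in control cartilage and 0 of 15591 in the interaction. A count of 0 in either for this list or those below is therefore no result about the list. For Col9a2 the interaction was 1.76 (unadjusted p = 0.00989) and for Sox9 1.77 (unadjusted p = 0.0103).

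Most immediate early genes were higher at 12 weeks. Of 21 tested, 12 were called higher (57.1%, against 11.7% of all genes) and 0 lower, with a median log2 fold change of 1.12. Nr4a1 (chr15:101253902-101274795), for an orphan nuclear receptor induced by many acute signals, was at 18.3, 11.5 and 10.03 CPM at 4 weeks and 72.9, 57.0 and 23.7 CPM at 12 weeks (log2 fold change 1.95, SE 0.40, adjusted p = 0.0156). Fos (chr12:85473890-85477274), for a subunit of the AP-1 transcription factor, was at 33.6, 27.4 and 17.5 CPM at 4 weeks and 71.8, 171 and 43.7 CPM at 12 weeks (log2 fold change 1.87, SE 0.52, adjusted p = 0.0464) and was highest in 12-week replicate 2. Dusp1 (chr17:26505591-26508472), for a phosphatase that switches off MAP kinases, was at 243, 172 and 125 CPM at 4 weeks and 508, 867 and 493 CPM at 12 weeks (log2 fold change 1.79, SE 0.30, adjusted p = 0.00954). Jun and Junb, partners of Fos in AP-1, had log2 fold changes of 1.56 (SE 0.32) and 1.01 (SE 0.21). Among the smaller called changes were Zfp36, which promotes decay of cytokine mRNAs (1.12), the antiproliferative gene Btg2 (0.82) and the AP-1 subunit Fosl2 (0.63). Egr1 was not called (log2 fold change 1.26, SE 0.46, adjusted p = 0.0855), and its lowest 12-week value lay below the highest 4-week value. In control cartilage the list had a median of 0.02, with 11 genes up and 10 down. The interaction passed an unadjusted p-value of 0.05 in 9 genes, against 11.9% of all genes, and an adjusted one in 0. Between 4 and 14 genes were called when a library was left out, the fewest without 4-week replicate 3 (4), 4-week replicate 2 (5) and 12-week replicate 2 (6). Under the GC and length correction 9 were called and the median was 0.85, with Fos (log2 fold change 1.77, adjusted p = 0.117), Junb (0.44, adjusted p = 0.178) and Fosl1 (0.85, adjusted p = 0.112) not called. The corrected value of Fos was close to its uncorrected 1.87.

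The promoters of the 3 genes of this list with the largest called rises are shown. They run from 250 bases before to 50 bases after the transcription start in RefSeq on GRCm38.p6 and are written 5′ to 3′ on the strand of the gene. Capitals mark TGACG or its reverse complement CGTCA, the core of the cAMP response element to which CREB and ATF proteins bind. Where both overlap, as in TGACGTCA, each was counted. Nr4a1 is on the plus strand at chr15:101266596-101266895, Fos on the plus strand at chr12:85473640-85473939 and Dusp1 on the minus strand at chr17:26508423-26508722. The Nr4a1 window lies inside the span of the gene given above, and whether the transcript that was counted starts there was not checked.
Nr4a1: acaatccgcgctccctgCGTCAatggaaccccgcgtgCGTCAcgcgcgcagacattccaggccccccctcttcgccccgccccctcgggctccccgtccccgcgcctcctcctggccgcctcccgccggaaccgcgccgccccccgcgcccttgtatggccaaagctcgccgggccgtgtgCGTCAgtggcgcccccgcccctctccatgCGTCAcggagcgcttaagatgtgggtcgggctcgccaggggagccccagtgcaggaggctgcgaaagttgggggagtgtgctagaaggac
Fos: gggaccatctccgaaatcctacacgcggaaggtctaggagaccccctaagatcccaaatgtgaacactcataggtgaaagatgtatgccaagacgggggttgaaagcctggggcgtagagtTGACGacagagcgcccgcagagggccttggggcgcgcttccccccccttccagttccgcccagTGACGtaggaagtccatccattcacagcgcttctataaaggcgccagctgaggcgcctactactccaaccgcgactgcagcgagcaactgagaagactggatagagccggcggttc
Dusp1: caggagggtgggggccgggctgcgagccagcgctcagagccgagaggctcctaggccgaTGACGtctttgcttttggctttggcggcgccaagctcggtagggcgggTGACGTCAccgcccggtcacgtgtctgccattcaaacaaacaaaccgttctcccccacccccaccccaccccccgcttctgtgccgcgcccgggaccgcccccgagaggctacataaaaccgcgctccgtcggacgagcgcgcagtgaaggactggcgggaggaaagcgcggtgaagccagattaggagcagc
The letters occurred 4 times in the Nr4a1, 2 times in the Fos and 3 times in the Dusp1 window. Of the 22 genes of the list, 18 had a promoter in the table, and 12 of these (66.7%) held the letters in at least 1 window, against 23.05% of all 27025 genes in the table. The promoter of Jun held none. The CArG box, to which serum response factor binds, was found in 2 of the 18 genes (11.1%), against 1.81% of all genes in the table. These are matches of letters on either strand, and binding was not measured.

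Most genes of fibroblasts and the synovial lining were lower at 12 weeks. Of 16 tested, 10 were called lower (62.5%, against 9.52% of all genes) and 1 higher, with a median log2 fold change of -1.46. Pdgfra (chr5:75151322-75198206), for a growth factor receptor that marks fibroblasts, was at 142, 124 and 159.9 CPM at 4 weeks and 53.2, 58.9 and 37.8 CPM at 12 weeks (log2 fold change -1.50, SE 0.20, adjusted p = 0.00687). Dpt, for the matrix protein dermatopontin, was at 163, 219.5 and 273 CPM at 4 weeks and 58.2, 46.3 and 12.5 CPM at 12 weeks (log2 fold change -2.48, SE 0.55, adjusted p = 0.0254). Lum (chr10:97565501-97572703), for the collagen-binding proteoglycan lumican, was at 3273, 3976 and 5342 CPM at 4 weeks and 1495.3, 1753 and 843 CPM at 12 weeks (log2 fold change -1.62, SE 0.31, adjusted p = 0.0120). The microfibril gene Mfap5 (log2 fold change -2.01), Clec3b (-1.71), Cd34 (-1.41) and the vimentin gene Vim (-0.65) were also called lower. Pi16, a peptidase inhibitor gene used as a marker of adventitial fibroblasts, moved the other way, at 19.8, 17.5 and 22.8 CPM at 4 weeks and 62.7, 51.8 and 86.3 CPM at 12 weeks (log2 fold change 1.74, SE 0.22, adjusted p = 0.00687). Thy1 was not called (log2 fold change -0.74, SE 0.30, adjusted p = 0.106).

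With each library left out in turn, 8 to 9 fibroblast genes were called lower, and Pi16 was called higher each time. With the GC and length correction 11 were called lower and 1 higher, with a median of -1.15, and Dpt was no longer called although its log2 fold change was -2.27 (adjusted p = 0.0641). In control cartilage 15 of the 16 genes also had lower values at 12 weeks, with a median of -0.95 and 0 calls (0 over all genes). The median interaction was -0.02. Dpt, for example, had a log2 fold change of -3.80 in control (unadjusted p = 0.000236, adjusted p = 0.0655).

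Most macrophage genes were lower at 12 weeks as well. Of 14 tested, 10 were called lower (71.4%, against 9.52% of all genes) and 0 higher, with a median of -1.40. Adgre1, which encodes the macrophage antigen F4/80, was at 79.7, 127 and 228 CPM at 4 weeks and 57.9, 37.7 and 53.5 CPM at 12 weeks (log2 fold change -1.54, SE 0.35, adjusted p = 0.0183). Lyve1 (chr7:110850607-110862953), a marker of resident perivascular macrophages and of lymphatic vessels, was at 65.4, 72.6 and 110.3 CPM at 4 weeks and 20.04, 15.7 and 8.28 CPM at 12 weeks (log2 fold change -2.49, SE 0.33, adjusted p = 0.00687). Folr2, a folate receptor gene of resident macrophages, was at 46.5, 49.9 and 105 CPM at 4 weeks and 16.02, 15.5 and 10.9 CPM at 12 weeks (log2 fold change -2.25, SE 0.32, adjusted p = 0.00754). The highest value of all 3 genes was in 4-week replicate 3. Cd163, for a haemoglobin scavenger receptor, had a log2 fold change of -1.74, and Timd4, for a receptor of dying cells, of -1.88. The complement genes C1qa, C1qb and C1qc had values of -1.24, -1.26 and -1.24 on the same scale. Csf1r, for the receptor on which macrophages depend, was at 301, 294 and 254 CPM at 4 weeks and 255, 158 and 201 CPM at 12 weeks and was not called (adjusted p = 0.123). The list summed to 1289 to 2261 CPM at 4 weeks and 661 to 926 CPM at 12 weeks. Corrected for GC and length, 11 were called lower, Csf1r among them (adjusted p = 0.0119), and Adgre1 was not, at a log2 fold change of -1.43 (adjusted p = 0.0551). Leaving out 1 library gave 4 to 11 lower calls, with 4 without 12-week replicate 2 and 8 without 4-week replicate 3. In control cartilage the median was -0.33, and the interaction passed an unadjusted p-value of 0.05 in 8 of the 14 genes, against 11.9% of all genes, and an adjusted one in 0.

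**Figure D3:**
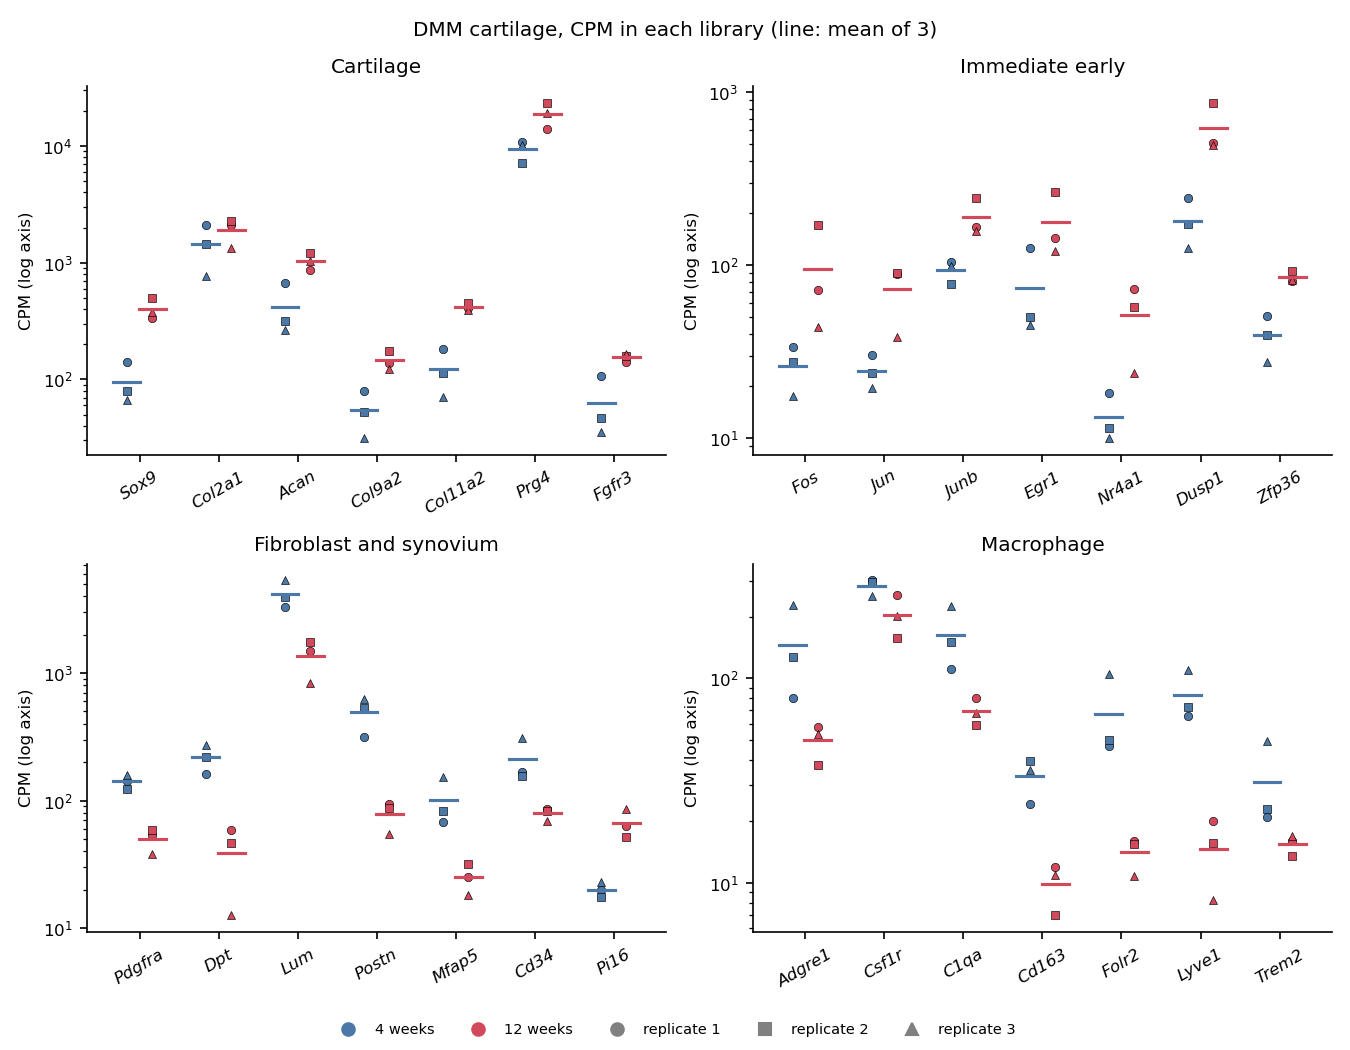
CPM on a log axis in each DMM library for 7 genes each of cartilage, immediate early, fibroblast and synovium, and macrophage lists. Symbols are replicates and horizontal lines are means of 3. The cartilage and immediate early genes drawn lie mostly higher at 12 weeks, the fibroblast and macrophage genes lower, with overlapping weeks for Col2a1, Egr1 and Csf1r. The genes were picked from the lists, so the direction drawn is no result about a whole list.

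Small leucine-rich proteoglycans, which bind collagen fibrils, had 3 of 12 members called lower (25%, against 9.52% of all genes) and 0 higher. Aspn (chr13:49544443-49567565), for asporin, was at 466, 529 and 693 CPM at 4 weeks and 167, 243 and 78.7 CPM at 12 weeks (log2 fold change -1.79, SE 0.36, adjusted p = 0.0138). Ogn, for osteoglycin, had a log2 fold change of -1.97, and Lum was the other lower call. Dcn, for decorin, was at 18049 ± 4719 CPM at 4 weeks and 11527 ± 3051 CPM at 12 weeks (SD, n = 3 each) and was not called (adjusted p = 0.132). In control cartilage all 12 had lower values at 12 weeks and 0 were called (0 over all genes). With the GC and length correction 3 were again called lower, and leaving out 1 library gave 2 to 5 lower calls. It also gave 0 to 2 higher calls, with 2 without 4-week replicate 1. Aspn belongs with Lrrc15, Lrrc17, Adamts16, Mmp3 and Ptgs2 to a list of 6 genes. The study gives them, among others, as examples from its comparison of DMM with control limbs in these libraries, so their direction is no independent evidence. Lrrc17 (chr5:21543527-21575911), for a secreted leucine-rich repeat protein, was at 41.3, 38.9 and 51.7 CPM at 4 weeks and 13.6, 13.4 and 5.75 CPM at 12 weeks (log2 fold change -2.02, SE 0.31, adjusted p = 0.00834). Adamts16 was at 6.94, 6.49 and 6.59 CPM at 4 weeks and 2.68, 2.99 and 1.98 CPM at 12 weeks (log2 fold change -1.39, SE 0.26, adjusted p = 0.0114). Lrrc15, for a membrane protein with leucine-rich repeats, was at 31.4, 17.98 and 25.3 CPM at 4 weeks and 15.7, 13.5 and 5.50 CPM at 12 weeks and missed the threshold (log2 fold change -1.11, SE 0.37, adjusted p = 0.0581). It was called after GC and length correction (log2 fold change -1.18, adjusted p = 0.0362). Mmp3, for stromelysin 1, was at 164, 277 and 920.3 CPM at 4 weeks and 73.0, 76.0 and 32.1 CPM at 12 weeks. Its log2 fold change was -2.91 (SE 0.77, adjusted p = 0.0504) and its highest value was in 4-week replicate 3. Ptgs2, for the prostaglandin enzyme COX-2, had the 1 positive value of the 6, at 22.5, 22.8 and 17.5 CPM at 4 weeks and 30.4, 29.1 and 26.8 CPM at 12 weeks (log2 fold change 0.46, SE 0.18, adjusted p = 0.0930). In control cartilage all 6 had negative log2 fold changes and 0 were called (0 over all genes). The interaction values of Lrrc15, Lrrc17 and Aspn were -0.27 (SE 0.79), 0.05 (SE 0.57) and -0.16 (SE 0.74). Over the 6 genes the interaction had an unadjusted p-value under 0.05 in 1, against 11.9% of all genes, and an adjusted one in 0.

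Proteases that degrade the matrix were called in both directions. Of 17 MMP and TIMP genes, 3 were called higher and 2 lower (29.4%), against 21.2% of all genes. Mmp13, the collagenase that cleaves type II collagen, fell from 789, 1272 and 1511 CPM to 629, 427 and 441 CPM (log2 fold change -1.25, SE 0.27, adjusted p = 0.0170), and the inhibitor gene Timp1 also fell (log2 fold change -1.07). Mmp9, a gelatinase of osteoclasts and neutrophils, rose by 1.15 on the log2 scale (adjusted p = 0.0452), Mmp24 by 0.78 and the inhibitor gene Timp4 by 0.94. Mmp2 was not called (adjusted p = 0.183). Of 16 ADAMTS genes, 1 was called higher and 3 lower (25%). Adamts5, the main aggrecanase of mouse cartilage, was at 50.9, 41.4 and 60.5 CPM at 4 weeks and 25.8, 29.9 and 21.2 CPM at 12 weeks (log2 fold change -0.99, SE 0.20, adjusted p = 0.0137). Adamts12 fell (log2 fold change -1.67) and Adamts10 rose (1.37). Adamts5 stayed called after GC and length correction (-0.67, adjusted p = 0.0266), as did Mmp13, Timp1 and Timp4, and Mmp9 (0.67, adjusted p = 0.0947) and Mmp24 (0.11, adjusted p = 0.739) did not. With the correction the MMP and TIMP list had 1 higher and 5 lower calls and the ADAMTS list 1 and 3. The MMP and TIMP calls moved with single libraries. Without 4-week replicate 2, 0 of the list were called, against 896 of 15091 genes. Without 4-week replicate 1, 5 were called higher and 4 lower, against 5061 of 15380 genes in either direction. The 3 lower ADAMTS calls stood without each library in turn.

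Inflammatory mediators had 3 of 20 genes called higher (15%) and 1 lower (5%), near or below the 11.7% and 9.52% of all genes. Leaving out 1 library gave 1 to 3 higher and 0 to 2 lower calls. Il11, a cytokine of the interleukin 6 family, was at 4.32, 2.82 and 4.03 CPM at 4 weeks and 13.3, 15.7 and 14.5 CPM at 12 weeks (log2 fold change 1.97, SE 0.24, adjusted p = 0.00687). The epithelial transcription factor gene Elf3 was the call with the fewest counts of these, 11, 4 and 4 at 4 weeks and 31, 21 and 22 at 12 weeks. It passed the filter on low counts through the 12-week libraries where it was high, so its value (log2 fold change 1.87) and its call are no support for a rise. The monocyte chemokine gene Ccl2 fell from 2.46, 2.18 and 10.4 CPM to 1.40, 0.747 and 1.31 CPM (log2 fold change -2.09, adjusted p = 0.0386). Il1b was at 7.33, 14.1 and 18.6 CPM at 4 weeks and 29.0, 22.7 and 22.5 CPM at 12 weeks and was not called (adjusted p = 0.0652). Corrected for GC and length, Il11 stayed called, while Elf3 (log2 fold change 1.42, adjusted p = 0.0917) and Ccl2 (-1.31, adjusted p = 0.0909) did not. Il1b and Ptgs2 were then called higher (adjusted p = 0.00645 and 0.01004), and the list had 4 higher and 0 lower calls. Among 18 interferon-stimulated genes, Irf7 was called higher (0.60) and Ifit1 lower (-1.06), 5.56% each way and below the shares of all genes, and the median was -0.39. Irf7 was not called with the correction (log2 fold change 0.12, adjusted p = 0.596), and Ifit1 was (-0.70, adjusted p = 0.0438). Without 4-week replicate 1 the list had 1 higher and 8 lower calls, with a median of -0.59, and without any other single library 0 higher and 0 to 1 lower.

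Growth factor lists had calls in both directions, in 36.8% of IGF and FGF, 19.2% of TGF-beta and BMP and 26.9% of WNT pathway genes, against 21.2% of all genes. Igf1 (chr10:87858265-87937047), for an anabolic growth factor for cartilage, was at 123, 185 and 264 CPM at 4 weeks and 53.1, 43.2 and 34.3 CPM at 12 weeks (log2 fold change -2.13, SE 0.29, adjusted p = 0.00687). Of 6 genes for IGF binding proteins, which control access of IGF to its receptor, 4 were called lower, against 9.52% of all genes, with log2 fold changes of -1.34 for Igfbp3, -0.76 for Igfbp5, -0.86 for Igfbp6 and -0.94 for Igfbp7. Igfbp4 (-0.14, adjusted p = 0.603) and Igfbp2 (0.13, adjusted p = 0.867) were not called, and Igfbp4 was called lower with the GC and length correction (-0.77). With each library left out in turn, 0 to 2 of the 6 were called lower. The receptor gene Igf1r rose by 0.72 (adjusted p = 0.0274). In all, 5 of 19 genes of the IGF and FGF list were called lower and 2 higher, and 7 lower and 3 higher with the GC and length correction. Leaving out 1 library gave 1 to 3 lower and 0 to 4 higher calls, the fewest without 4-week replicate 2. Of 26 TGF-beta and BMP genes, 4 were called higher and 1 lower. Tgfb1 (chr7:25687002-25705077), the growth factor TGF-beta 1, was at 123, 81.3 and 64.3 CPM at 4 weeks and 191, 267 and 237 CPM at 12 weeks (log2 fold change 1.37, SE 0.25, adjusted p = 0.0110). Bmp2, a ligand that promotes chondrocyte and bone differentiation, was at 58.5, 28.4 and 25.98 CPM at 4 weeks and 93.0, 138 and 91.4 CPM at 12 weeks (log2 fold change 1.52, SE 0.32, adjusted p = 0.0153). Bmp7 rose by 1.34 and the latent TGF-beta binding protein gene Ltbp3 by 1.02, and the BMP antagonist gene Chrdl1 fell (log2 fold change -0.87). Ltbp3 and Chrdl1 were not called with the GC and length correction, under which the list had 3 higher and 3 lower calls. Of 26 WNT pathway genes, 3 were called higher and 4 lower. The WNT enhancer Rspo2 was at 28.2, 21.3 and 27.4 CPM at 4 weeks and 6.95, 8.96 and 6.27 CPM at 12 weeks (log2 fold change -1.80, SE 0.22, adjusted p = 0.00687). The antagonist genes Dkk2 and Sfrp4 had log2 fold changes of -2.14 and -0.94 and the receptor gene Fzd6 of -0.90. The ligand genes Wnt10b and Wnt11 and the transcription factor gene Lef1 rose by 1.52, 0.996 and 1.08. Wnt10b, Wnt11 and Fzd6 were not called with the correction, which left 1 higher and 3 lower calls. Leaving out 4-week replicate 1 raised the higher calls to 11 in the TGF-beta and BMP list and 8 in the WNT list, and leaving out 4-week replicate 2 left 1 and 0. In control cartilage 17 of 19 IGF and FGF genes had lower values at 12 weeks. So had 19 of 26 TGF-beta and BMP genes and 22 of 26 WNT genes. The medians of these 3 lists were -0.83, -0.29 and -0.68 in control and -0.14, 0.17 and 0.12 in DMM cartilage. Their interaction had an unadjusted p-value under 0.05 in 5, 8 and 6 genes, against 11.9% of all genes.

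Genes for the synthesis of glycosaminoglycans, the sulfated sugar chains of aggrecan, had 7 of 23 members called higher (30.4%, against 11.7% of all genes) and 0 lower, with a median of 0.34. Chst3, for a sulfotransferase of chondroitin, was at 37.9, 26.1 and 16.1 CPM at 4 weeks and 54.5, 83.6 and 63.9 CPM at 12 weeks (log2 fold change 1.34, SE 0.30, adjusted p = 0.0174). Chst11, for another, was at 32.8, 29.9 and 32.6 CPM at 4 weeks and 49.6, 69.8 and 56.7 CPM at 12 weeks (log2 fold change 0.89, SE 0.17, adjusted p = 0.0126). The highest 12-week value of both was in replicate 2. B4galt7 and B3gat3, which build the linker between protein and chain, rose by 1.12 and 0.79. The polymerase genes Chpf and Chsy3 rose by 0.86 and 0.95, and Chst12 by 1.08. With the correction 4 were called higher and 1 lower, and B3gat3 (log2 fold change 0.25, adjusted p = 0.222), Chpf (0.22, adjusted p = 0.325) and Chst12 (0.59, adjusted p = 0.0781) were no longer called. Of the list 0 were called without 4-week replicate 2, against 896 of 15091 genes, and 10 without 4-week replicate 1, against 5061 of 15380.

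Of 21 hypoxia and glycolysis genes, 6 were called higher (28.6%, against 11.7% of all genes) and 0 lower. The other 15 were not called, and the median log2 fold change of the list was 0.28. Values ran from -0.19 to 1.49, with 18 positive and 3 negative. Vegfa (chr17:46016993-46032377), the main angiogenic factor, was at 77.6, 52.5 and 37.1 CPM at 4 weeks and 144, 176 and 133 CPM at 12 weeks (log2 fold change 1.44, SE 0.26, adjusted p = 0.0108). Car9, for a carbonic anhydrase induced by low oxygen, was at 6.77, 4.24 and 5.33 CPM at 4 weeks and 12.9, 15.7 and 17.3 CPM at 12 weeks (log2 fold change 1.49, SE 0.24, adjusted p = 0.00890). Hk2, for hexokinase 2, rose by 1.26, the glucose transporter gene Slc2a1 by 0.94, and the glycolytic genes Pfkl and Gpi1 by 1.11 and 0.69. In control cartilage 18 of the 21 had lower values at 12 weeks, and the interaction of Vegfa was 1.61 (unadjusted p = 0.00312) and that of Car9 1.88 (unadjusted p = 0.00133), neither past the adjusted threshold. Corrected for GC and length, Vegfa, Car9 and Hk2 stayed called and Slc2a1, Pfkl and Gpi1 did not. Leaving out 1 library gave 3 to 7 calls, with 3 without 4-week replicate 2.

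Genes of hypertrophic chondrocytes and bone gave mixed values. Of 18 hypertrophy and mineralization genes, 2 were called higher and 2 lower (22.2%, against 21.2% of all genes). Ihh, the hedgehog ligand of prehypertrophic chondrocytes, was at 38.7, 26.3 and 14.9 CPM at 4 weeks and 58.0, 80.3 and 59.7 CPM at 12 weeks (log2 fold change 1.31, SE 0.31, adjusted p = 0.0212) and was called with Vegfa. Ibsp, for bone sialoprotein, fell from 8283, 8856 and 7514 CPM to 4161, 4873 and 3080.1 CPM (log2 fold change -1.03, SE 0.24, adjusted p = 0.0205), and Mmp13 was the other lower call. Col10a1, the marker collagen of hypertrophy, was not called (log2 fold change 0.61, SE 0.31, adjusted p = 0.173). Of 15 osteoblast and osteocyte genes, 2 were called higher (13.3%) and 3 lower (20%), against 11.7% and 9.52% of all genes. Sost, for the osteocyte WNT inhibitor sclerostin, was at 218, 149.6 and 79.3 CPM at 4 weeks and 466, 489 and 348 CPM at 12 weeks (log2 fold change 1.54, SE 0.33, adjusted p = 0.0158). Col1a1, the main collagen of bone and fibrous tissue, was at 3982, 2749 and 1643 CPM at 4 weeks and 8814, 7009.6 and 6889 CPM at 12 weeks (log2 fold change 1.44, SE 0.32, adjusted p = 0.0176). Pdpn, for the membrane protein podoplanin, and Ifitm5, a gene of mineralizing osteoblasts, had log2 fold changes of -1.84 and -0.65. Sost, Col1a1 and Pdpn stayed called with the GC and length correction, and Ibsp did not (log2 fold change -0.68, adjusted p = 0.0864). The hypertrophy list then had 3 higher and 1 lower calls and the osteoblast list 3 and 4. Without 4-week replicate 2, 0 of the osteoblast list were called higher and 1 lower, and 1 hypertrophy gene higher and 0 lower. Without 4-week replicate 1, 5 of the osteoblast list were called higher and 4 lower, and 9 hypertrophy genes higher and 2 lower. In the list of 20 fibrillar collagens and cross-linking enzymes, Col1a1 and Plod3 were called higher and Col14a1 lower (-1.72), 15% of the list. It had 0 higher calls without 4-week replicate 2 and 6 without 4-week replicate 1, and its median ran from -0.07 to 0.48 as each library was left out. With the correction the list had 2 higher and 6 lower calls, and Col3a1 was among the lower ones (adjusted p = 0.126 without it and 0.0412 with it).

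Markers of the tissues next to cartilage were called in both directions, and over all genes 11.7% were called higher and 9.52% lower. All 23 skeletal muscle genes tested had positive log2 fold changes, with a median of 1.14 and 0 calls, and without 12-week replicate 1 the median was -1.02. After GC and length correction it was 0.87, again with 0 calls. Myh1 was at 17.8, 14.8 and 7.01 CPM at 4 weeks and 249.6, 30.1 and 1.63 CPM at 12 weeks. The highest value was in 12-week replicate 1, and neither Myh1 nor Tcap was at 0 in any library. In control cartilage all 23 muscle genes had negative log2 fold changes, with a median of -1.31. Of 12 adipocyte genes, 5 were called lower (41.7%) and 0 higher. Cfd, for adipsin, was at 386, 186 and 326 CPM at 4 weeks and 114, 77.0 and 58.9 CPM at 12 weeks (log2 fold change -1.84, SE 0.32, adjusted p = 0.00966), and Adipoq and Retn, for adiponectin and resistin, had log2 fold changes of -0.89 and -1.91. The list had 1 lower call without 12-week replicate 2, 2 without 4-week replicate 3, 6 without 12-week replicate 1 and 4 with the GC and length correction. Without 4-week replicate 1 it had 2 higher and 5 lower calls. The adipocyte list summed to 1017 to 1413 CPM at 4 weeks and 545 to 1029.6 CPM at 12 weeks. In control cartilage 11 of the 12 adipocyte genes also had lower values at 12 weeks, with a median of -0.98 and 0 calls (0 over all genes). Of 14 endothelial genes, 3 were called lower and 0 higher (21.4% in either direction, against 21.2% of all genes), among them Tek (-1.64) and Pecam1 (-0.90), and 3 were called lower with the correction. Of 16 neutrophil and marrow genes, 4 were called higher (25%) and all 16 had positive values. In control cartilage all 16 had positive values as well, with a median of 1.02 and 0 calls (0 over all genes). Csf3r, the receptor for G-CSF, was at 79.4, 82.9 and 59.6 CPM at 4 weeks and 198, 134 and 188 CPM at 12 weeks (log2 fold change 1.23, SE 0.21, adjusted p = 0.00954), and 2 to 4 of the list were called with each library left out in turn. Mpo, for myeloperoxidase, was at 1628, 1851 and 1279 CPM at 4 weeks and 2664, 2911 and 5468 CPM at 12 weeks, highest in 12-week replicate 3. With the GC and length correction 8 genes of the list were called higher, with a median of 0.69 against 0.61 without it, and Mpo was not among them (log2 fold change 0.66, adjusted p = 0.150). The uncorrected median was 0.21 without 12-week replicate 3 and 0.45 to 0.76 without each of the others. Of 14 B lymphocyte genes, the transcription factor gene Ebf1 (-1.27) and the CD20 gene Ms4a1 (-1.02) were called lower (14.3%), and 1 was with the correction. Of 15 erythroid genes, 1 was called (6.67%), Klf1 (0.92). It was not called with the correction (0.37, adjusted p = 0.352), and no erythroid gene was called without 4-week replicate 3, 12-week replicate 1 or 12-week replicate 3. The 15 include a pair of alpha globin genes with identical counts in every DMM library, so these are not separate evidence. Of 14 osteoclast genes, Mmp9, Tcirg1 and Nfatc1 were called higher (21.4%) and Ctsk lower (-0.91, 7.14%), and of these Nfatc1 alone stayed called with the correction. The osteoclast list had 0 calls without 4-week replicate 2, 4-week replicate 3 or 12-week replicate 3, and 4 higher and 3 lower without 4-week replicate 1. Leaving the genes of 6 of these lists out of the fit gave 3414 calls, 1725 higher and 1689 lower. The part of these tissues in the calls of other genes was not tested.

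The cell division, circadian clock and ER stress lists had 26.1%, 23.5% and 14.3% of their genes called, against 21.2% of all genes. Of 23 cell division genes, 5 were called higher, among them Plk1 (1.25) and Aurkb (1.34), and 1 lower, Top2a (-0.77). In control cartilage all 23 had positive values, with a median of 0.67 and 0 calls (0 over all genes). Of 17 circadian clock genes, Per1 (1.44) and Cry1 (1.24) were called higher and Clock (-0.81) and Nr1d2 (-0.77) lower. The median of the clock list was 0.11 in DMM and -0.72 in control cartilage, where 14 of the 17 had negative values. Of 21 ER stress and chaperone genes, Creb3l2 and Sdf2l1 were called higher and Atf6 lower. Under the GC and length correction Plk1, Aurkb and Cry1 stayed called, and Top2a, Per1, Clock, Nr1d2 and the 3 ER genes did not. Cdc20, another of the higher cell division calls, was also lost (adjusted p = 0.129). The cell division list then had 4 higher and 0 lower calls, the clock list 1 and 0, and the ER list 0. Over all 15024 genes the corrected calls were 1208 higher and 1116 lower. Leaving out 1 library gave 1 to 4 higher and 0 to 2 lower calls in the cell division list, with 1 higher without 4-week replicate 3. The clock list had 7 higher calls without 4-week replicate 1 and 1 to 2 without any other single library, and 0 to 1 lower calls in each of these fits. The ER list had 0 to 2 higher and 0 to 1 lower.

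**Figure D4:**
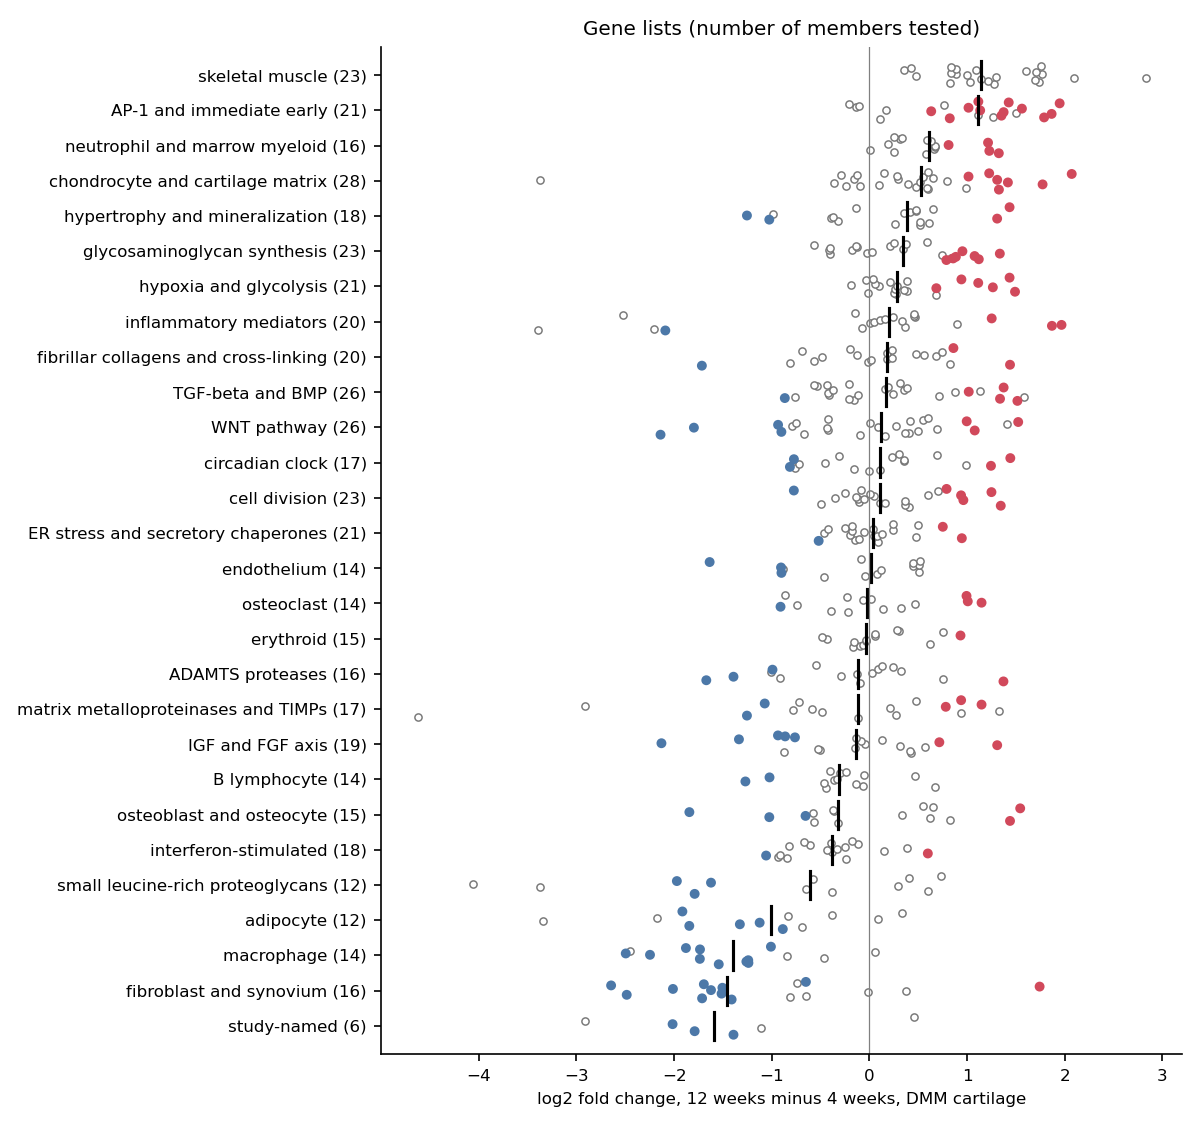
Log2 fold change from 4 to 12 weeks in DMM cartilage for the tested members of 28 gene lists, ordered by median (black bar). Filled points were called, red higher and blue lower, and open points were not. Medians run from -1.59 for 6 genes among those named by the study to 1.14 for skeletal muscle, in which no gene was called.

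The control limbs serve to ask whether the same genes moved over these weeks without surgery. In control cartilage edgeR called 0 of 15246 genes (0%) between 12 and 4 weeks, with a smallest adjusted p-value of 0.0636 and 3190 genes at an unadjusted p-value under 0.05, whereas DESeq2 called 1867. Without control 4-week replicate 3, edgeR called 2698. Across the 14887 genes tested in both limbs, which are not independent replicates, the log2 fold changes correlated at r = 0.49. Both limbs share the week of collection and came from the same mice. Of the 3162 genes called in DMM cartilage and tested in control, 2811 (88.9%) had the same sign in control, against 67.5% of all genes. The median size of their log2 fold change was 0.99 in DMM and 0.51 in control cartilage. Vsig4 (-3.26 in DMM and -3.19 in control) and Lmnb1 (2.68 and 1.63) had values of the same sign in both limbs, and so had Gpr34 (-3.16 and -1.87). The same held for Fmnl3 (2.64 and 2.12), Csf2ra (2.29 and 1.85) and Ccl24 (-3.33 and -4.17). It did not hold for Cntfr (2.57 and -2.74).

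The test of the difference between the limbs called 0 of 15591 genes (0%), with a smallest adjusted p-value of 0.416, while 1862 genes had an unadjusted p-value under 0.05 and DESeq2 called 12. With edgeR, no change from 4 to 12 weeks was shown to differ between the limbs. The genes with the smallest p-values in each direction are given as values. Cntfr, named above, was at 28.6, 8.84 and 2.13 CPM in control at 4 weeks and 1.37, 2.36 and 2.05 CPM in control at 12 weeks, in a fit of all 12 libraries. In the same fit DMM libraries were at 2.56, 1.91 and 1.34 CPM at 4 weeks and 16.5, 10.98 and 6.09 CPM at 12 weeks (interaction 5.29, SE 1.02, adjusted p = 0.416). Tnnc1, Tnni1 and Csrp3, genes of slow muscle, had interactions of 7.003, 5.74 and 4.54 and were high in the control libraries at 4 weeks. Tnnc1 was at 86.8, 8.39 and 10.6 CPM there and at most 1.13 CPM in every DMM library. Ppp1r3c, a regulator of glycogen synthesis, had an interaction of 1.27 and a log2 fold change in control of -1.24 (unadjusted p = 0.000801). In the other direction Ranbp6 (-1.15), Exoc5 (-1.09), Ifi207 (-1.63), Washc4 (-1.10) and Gpr176 (-1.76) had the smallest p-values, and all 5 were called lower in DMM cartilage. Ranbp6, which encodes a relative of the importins, was at 37.8, 46.3 and 44.9 CPM at 4 weeks and 18.3, 15.3 and 17.7 CPM at 12 weeks in DMM (log2 fold change -1.33, SE 0.17, adjusted p = 0.00687).

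**Figure D5:**
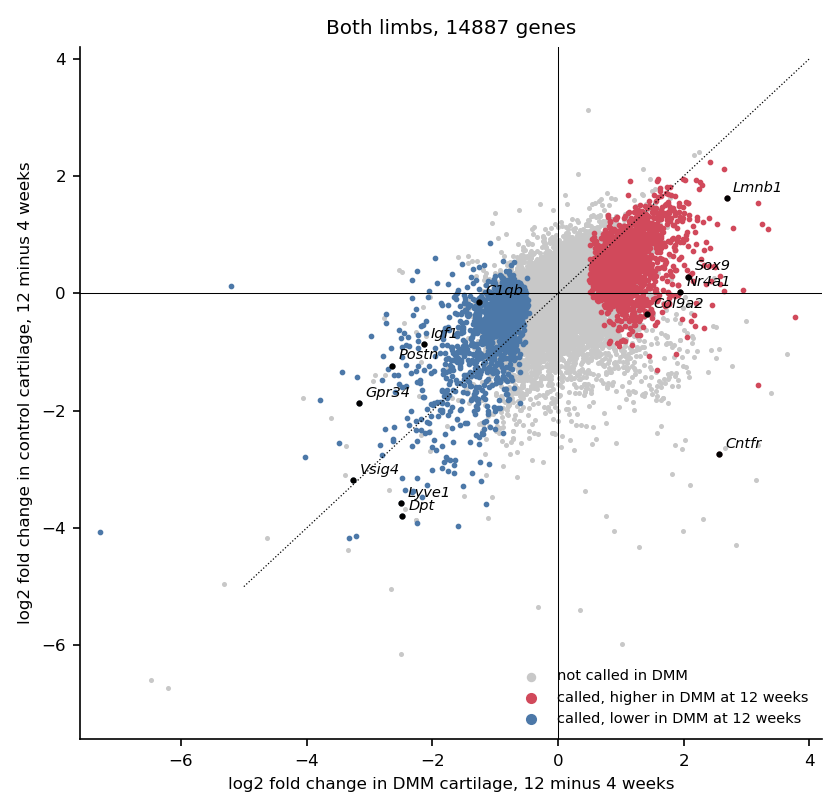
Log2 fold change from 4 to 12 weeks in DMM (x axis) and control cartilage (y axis) for 14887 genes. Coloured points were called in DMM cartilage, and the dotted line marks equal values. Most called genes have the same sign in both limbs, and their median distance from 0 is 0.99 in DMM and 0.51 in control.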

How the data were processed

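RNA was measured in cartilage pools of the DMM and control limbs at 4 and 12 weeks. By the study's methods, amplified cDNA was made from low-input RNA with SMART-Seq v4 and Nextera XT, reads were trimmed with FLEXBAR and aligned with STAR to mm10, and featureCounts counted RefSeq transcripts. The labels describe poly(A) TruSeq libraries instead. The authors deposited raw counts per RefSeq transcript, 30048 rows per library, of which the 29476 with a RefSeq symbol were used. Reads amplified from one molecule are not independent, and the methods name no molecular identifiers. For each of 23059 genes the row with the highest mean count over the 6 DMM libraries was kept.

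Counts were tested with edgeR 4.0.16 (TMM, filterByExpr, robust quasi-likelihood test, 3 against 3 libraries, Benjamini-Hochberg threshold 0.05, R 4.3.3), and the SE is the log2 fold change divided by the root of F. The interaction of limb and week was fitted on all 12 libraries as means of 4 groups, and this fit did not pair limbs of the same mice. CPM values are TMM-scaled within each fit, so levels of the limbs are compared only where all 12 libraries were fitted together. The test was checked on simulated data. Alternatives were DESeq2 1.42.0, other scalings, filters and features, each library left out, a replicate block, and correction for GC content and length by a spline in each library. P-values measure the spread between pools, which may be partly technical.

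The comparison, the 28 gene lists and the named genes were chosen with earlier results of these data known. Named genes were the 12 highest and 12 lowest log2 fold changes among called genes with separate groups and at least 5 CPM, the 6 study-named genes, defining and called members of each list (up to 8) and the 5 smallest interaction p-values per direction. Same-numbered libraries of the 2 weeks came from different mice. List members without a row under their symbol (Ahsp, Ly6g, Cd68 and Col12a1) or removed as low (Myh7, Mmp10, Adamts19, Adamts20, Cxcl2, Ccl20, Nr4a3, Has3 and Fgf23) were not tested. The methylation files were not used. A few results are not reported here.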

Additional observations from a re-analysis of the deposited data

How the results depend on the processing

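Counts of called genes depended on which library was left out and on the threshold. The comparison of DMM cartilage gave 896 to 5061 calls without 1 library, 324 at an adjusted p-value under 0.01, 4980 over every RefSeq transcript and 3130 to 4326 with the other planned tools, scalings, filters and fits. With the GC and length correction, chosen after seeing the data, it gave 2324, and 4319 without both replicate 1 libraries, also chosen afterwards. With the genes of 6 other tissues left out, the calls split into 1725 higher and 1689 lower.

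With a replicate block 3277 genes were called (1886 higher and 1391 lower), of which 2839 were among the 3186. The correlations of deviations of same-numbered libraries were 0.28, -0.12 and 0.17. These values cannot show what such libraries share, and the pools of the 2 weeks came from different mice. The interaction gave 0 calls with its block and under its other alternatives, except 12 with DESeq2 and 0 to 2 without 1 library. Its block joined same-numbered libraries of the 2 limbs within a week. With this block 2571 of 15591 genes had an unadjusted p-value under 0.05 by edgeR, against 1862 without it. The interaction counts given for lists come from the fit without the block. The control comparison, whose alternatives were chosen after seeing the data, gave 0 calls, but 1867 with DESeq2, 44 with no filter on low counts, 816 in a fit of all 12 libraries, 16 with the GC and length correction and 0 to 2698 without 1 library. For each of these the cause was not tested.

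Of the genes named in the text, 4 that were not called changed sign under an alternative. Col2a1 was at -0.18 on the log2 scale with the GC and length correction. Csrp3 ranged from -0.021 to 1.04 without 1 library and was at -0.28 without both replicate 1 libraries. Ppp1r3c ranged from -0.017 to 0.11 without 1 library and was at -0.040 without both. Igfbp2 ranged from -0.54 to 0.37 without 1 library, and was at -0.37 with the GC and length correction and -0.52 without both. Arms of 2 libraries share the spread of the other groups. Depth was 19606534 to 32733347 counts per library, and genes under the filter on low counts were not tested.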

Other observations

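Mmp12 and Ccl7 had a value in 4-week replicate 3 far above those of the other 5 libraries. They were chosen after their values were seen, and how many genes share this was not counted. Some other members of their lists, such as Ccl2 and Mmp3, were also highest in that library. Others, such as Il1b and Mmp9, were not. Mmp12, for the macrophage elastase, was at 1.99, 2.31 and 78.6 CPM at 4 weeks and 1.34, 0.907 and 1.06 CPM at 12 weeks. Ccl7, for a monocyte chemokine, was at 3.51, 3.04 and 29.3 CPM at 4 weeks and 1.49, 1.07 and 0.831 CPM at 12 weeks. Neither was called (adjusted p = 0.142 and 0.0758).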
